A study of Mus musculus with 8 samples.

Results

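The germ cell mitochondrial isozymes are a set of 9 genes, most of which encode forms of mitochondrial proteins used by male germ cells in place of the forms found in other tissues. The members were given by symbol: Cyct, Cycs, Cox6b2, Cox8c, Pdha2, Slc25a31, Gk2, Gykl1 and Suclg2. Every probe set annotated with 1 of these symbols was taken from a table of 45101 probe sets. Of the 9 genes 8 were annotated, with 13 probe sets in all, and Gykl1, a relative of Gk2, was matched to no probe set and was not analysed here. Of the 13 probe sets 12 passed the filter on low values, and the remaining one, the dimmest for Cycs, read 21.0, 44.2, 34.1 and 49.3 in mutant replicates 1 to 4 and 41.7, 22.6, 38.4 and 42.1 in wild-type replicates 1 to 4. Where a gene has several probe sets they are lettered from the brightest mean down, so that Cycs D is the one left out.

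RNA of whole testes from 8 mice aged 27 days was hybridised to Affymetrix arrays, 1 array per mouse. A group of 4 mice was labelled as mutant with the genotype Brwd1-/-. The other 4 were titled wild type, but their genotype entry reads Brwd1+/-, which would mean 1 mutant copy. The name in the titles, wild type, is used for them. Brwd1 encodes a protein with bromodomains and WD repeats. The mutation is not described in the labels, and no agent was given to either group. Values are deposited intensities on a linear scale, with the same trimmed mean, 500, on every array.

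Mitochondria pass electrons from fuel oxidation along a chain of protein complexes and use the resulting gradient to make ATP. Cytochrome c carries electrons to complex IV, cytochrome c oxidase, and when released into the cytosol it activates the apoptosome, a caspase platform. During mouse spermatogenesis several of these proteins are replaced by versions encoded by separate genes, some of them copies made from RNA that left an ancestral gene on the X chromosome, which is silenced during meiosis. Pdha1, Slc25a5 and Gk, the general forms beside Pdha2, Slc25a31 and Gk2, lie on chromosome X (assembly GRCm38.p6), while the 8 annotated members lie on autosomes. Cycs and Suclg2 are not restricted to germ cells.

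The set is built around the contrast between Cyct, the testis cytochrome c, and Cycs, the cytochrome c of somatic tissues and early germ cells. The 250 bases before the annotated start of each gene are shown because the windows differ in their matches to TGACG. Only the short sequences named below were looked for. The sequences are from RefSeq, assembly GRCm38.p6, written 5′ to 3′ on the gene's strand, with capitals marking the letters TGACG (the core of the cAMP response element) and CCAAT (the CCAAT box) on either strand. The Cyct window lies at chr2:76360454-76360703 and the Cycs window at chr6:50566570-50566819, both for genes on the minus strand.
Cyct: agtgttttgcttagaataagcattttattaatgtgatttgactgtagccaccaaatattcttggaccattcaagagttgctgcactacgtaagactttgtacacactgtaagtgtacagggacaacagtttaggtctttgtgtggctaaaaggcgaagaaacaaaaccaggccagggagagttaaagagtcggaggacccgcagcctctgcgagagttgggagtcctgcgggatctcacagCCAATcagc
Cycs: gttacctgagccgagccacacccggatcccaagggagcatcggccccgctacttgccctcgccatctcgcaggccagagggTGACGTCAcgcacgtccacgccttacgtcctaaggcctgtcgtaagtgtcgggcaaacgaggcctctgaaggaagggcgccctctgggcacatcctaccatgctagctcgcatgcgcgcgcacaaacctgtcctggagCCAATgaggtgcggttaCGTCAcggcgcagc

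The Cycs window held 1 full cAMP response element, TGACGTCA, whose 2 overlapping half-sites count among 3 matches to TGACG. The Cyct window held no match to TGACG. Among 32851 windows of the same length, 1.55% held TGACGTCA and 17.8% held TGACG. Each of the 2 genes had 1 CCAAT box, which 33.8% of windows held. The Cyct window contained 6 CpG dinucleotides, equal to the median of all windows (quartiles 2 and 16), and the Cycs window 23. Among the other members with an entry, Pdha2, Gk2, Cox6b2, Suclg2 and Slc25a31 had 4, 5, 8, 8 and 18. Of the 9 genes listed as their counterparts 7 had 14 or more, among them Suclg1, the partner subunit of Suclg2 rather than an alternative form. The Suclg2 window does not end at the gene start given in the gene table, and Cox8c and Gykl1 had no entry.

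None of the 8 measured genes passed the test between Brwd1-/- and wild-type testes. The log2 differences of the 12 probe sets, taken from log2(intensity + 16) as mutant minus wild type, ran from -0.13 to 0.21 with a median of 0.044, and none passed an adjusted p of 0.05 (limma across 27022 probe sets with Benjamini-Hochberg adjustment, smallest adjusted p = 0.799). At an unadjusted p under 0.05 the count was 0 of 12 as well, where 7.43% of all probe sets passed. At the adjusted threshold 0.115% of all probe sets were called, and the median log2 difference was 0.073. The 95% interval of the difference stayed within 1 log2 unit, a 2-fold change, of 0 for all 12 member probe sets. The same held for 78.9% of all probe sets. With the replicate number or the batch as a block none of the 12 was called either, where 2.39% and 1.79% of all probe sets were. At an unadjusted p under 0.05 the count was 1 of 12 in each of these fits, Cycs A, where 14.3% and 14.6% of all probe sets passed. A p above the threshold does not show equal levels. Precision is limited by how few arrays there are.

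**Figure D1:**
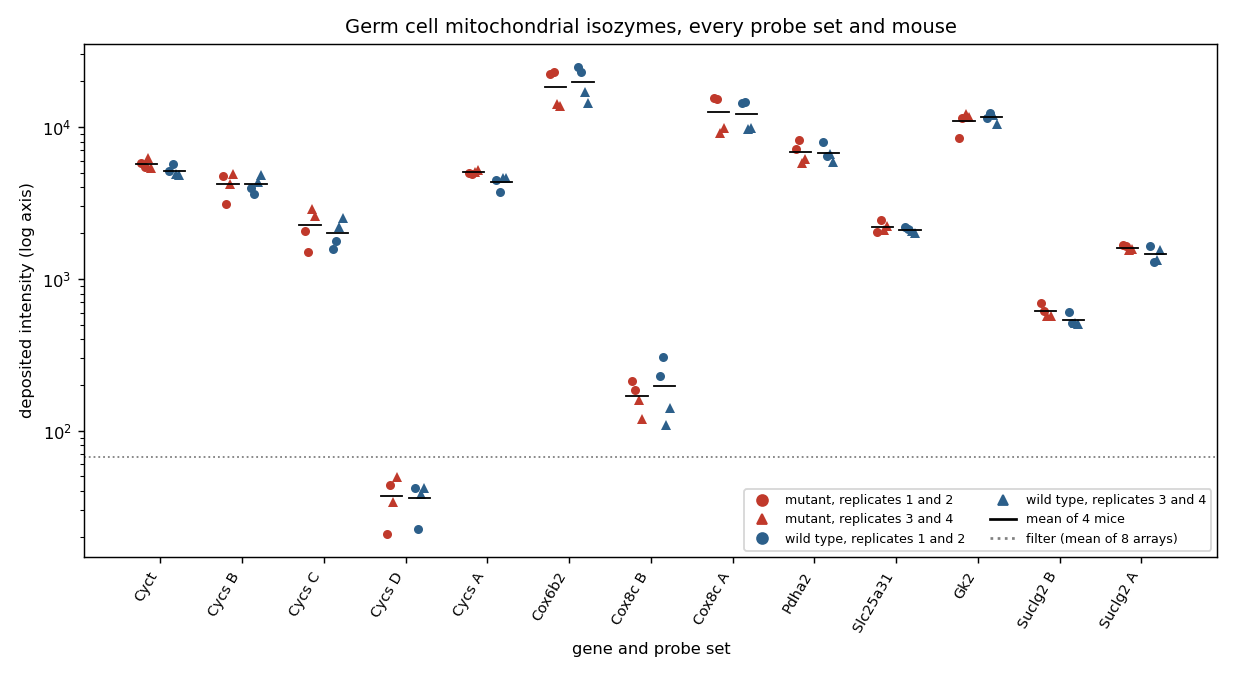
Deposited intensity (log axis) of each of the 13 member probe sets in each mouse, mutants in red to the left of wild type in blue, circles for replicates 1 and 2, triangles for replicates 3 and 4, black bars for the mean of 4 mice. The genotypes overlap in all but Cycs A, and Cox6b2, both Cox8c probe sets and Cycs C separate circles from triangles.

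Cyct, with 1 probe set, read 5769.6, 5463.9, 6223.6 and 5343.5 in mutant replicates 1 to 4, against 5098.3, 5713.9, 4926.4 and 4820.6 in wild-type replicates 1 to 4. Mutants had the highest value, but wild-type replicate 2 lay above 2 of them, so the genotypes overlapped. Means were 5700.1 ± 392.3 in mutants and 5139.8 ± 399.5 in wild type (SD, n = 4 each). The log2 difference was 0.15, its standard error 0.10 and its 95% interval from -0.087 to 0.39 (limma, adjusted p = 0.967).

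Cycs had 3 probe sets above the filter, and they did not give the same picture. On Cycs A mutants read 4956.9, 4869.4, 5047.4 and 5177.5, and wild type read 4495.4, 3725.7, 4575.8 and 4588. Every mutant value lay above every wild-type value, the only member probe set of 12 where the genotypes did not overlap, as 6.1% of all probe sets did not. Its log2 difference was 0.21, with 0.11 as the standard error (limma, adjusted p = 0.799, and 0.313 with the replicate number as a block). On Cycs B mutants read 4745.2, 3088, 4176 and 4889, wild type read 3960.8, 3600.9, 4366.4 and 4825, and the log2 difference was -0.0015. On Cycs C, with 2048.6, 1491.3, 2896.2 and 2606.2 in mutants and 1568, 1768.6, 2182 and 2497.8 in wild type, it was 0.15. The lowest mutant value on both of these probe sets was that of replicate 2. The array maker's names mark Cycs A and B as matching several transcripts of a gene, and Cycs has many processed copies in the mouse genome, so which copies gave these signals is uncertain.

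The contrast of Cyct with Cycs was measured as the log2 difference between the genes on the same array, using the brightest probe set of each. Such a difference shows unequal change only, since levels of different probe sets cannot be compared. It was 0.22, 0.17, 0.30 and 0.045 in mutant replicates 1 to 4, and 0.18, 0.61, 0.11 and 0.071 in wild-type replicates 1 to 4. The value of wild-type replicate 2 was the highest of the 8, and the other 7 lay between 0.045 and 0.30. The mean was 0.18 ± 0.11 in mutants and 0.24 ± 0.25 in wild type (SD, n = 4 each), a difference of -0.061 that did not exceed the spread between mice (exact permutation test, two-sided, p = 0.8 over 70 splits, the smallest possible p being 0.0286). Shifts from -0.57 to 0.23 were not rejected by the same exact permutation test at 0.05. Without wild-type replicate 2 the difference was 0.063, and with Cycs measured by Cycs B it was 0.15, so its sign is not settled.

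**Figure D2:**
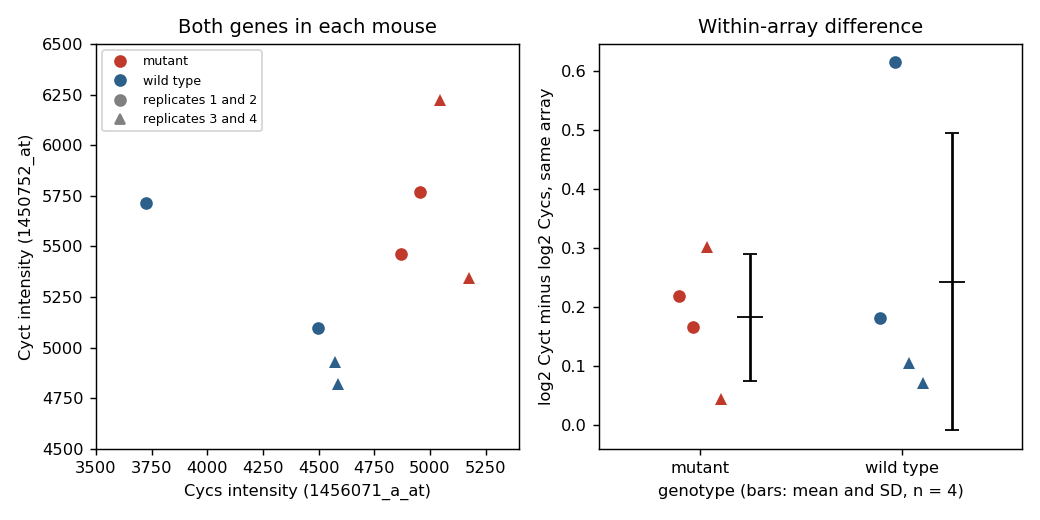
Left, intensity of Cyct against intensity of Cycs in each mouse, mutants in red and wild type in blue. Right, log2 Cyct minus log2 Cycs on the same array, mutant left of wild type, with mean and SD of 4 mice; the wild-type mouse at 0.61 stands above the other 7.

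Cox6b2 and Cox8c, the testis forms of a pair of small subunits of complex IV, were bright, and the genotypes overlapped in part. Cox6b2 read 22181, 23078.9, 14107.3 and 13711.6 in mutant replicates 1 to 4, against 24651.9, 22803.7, 16879 and 14459.5 in wild-type replicates 1 to 4. In both genotypes replicates 1 and 2 were high and replicates 3 and 4 low, and within replicates 3 and 4 both mutants lay below both wild-type mice. The log2 difference between genotypes was -0.12 with an interval from -0.64 to 0.40, which narrowed to -0.26 to 0.025 with the replicate number as a block (limma, adjusted p = 0.999 and 0.44).

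Cox8c A read 15573.8, 15220.7, 9162.2 and 9814.9 in mutants and 14373.6, 14646.6, 9728.6 and 9764.1 in wild type, with the same split of replicates. Its log2 difference between genotypes was 0.023, with an interval from -0.48 to 0.53 without a block and from -0.12 to 0.17 with the replicate block (limma, adjusted p = 0.999 and 0.903). Cox8c B was dim, with values from 119.9 to 212.9 in mutants and from 108.7 to 307.8 in wild type, and gave -0.13. The array maker's name for it marks probes that may bind other transcripts.

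Pdha2, the testis form of the catalytic subunit of pyruvate dehydrogenase, which feeds pyruvate carbon into the citric acid cycle, read 7165.6, 8188.7, 5806.7 and 6131.7 in mutants and 7950.5, 6414.3, 6641.7 and 5853.9 in wild type. The genotypes overlapped over nearly their whole range, and the log2 difference was 0.019 with an interval from -0.31 to 0.34 (limma, adjusted p = 0.999). Suclg2, the subunit that makes succinyl-CoA ligase form GTP in the same cycle, had 2 probe sets that leaned the same way. On Suclg2 A mutants read 1671.7, 1637.7, 1540.6 and 1576.5, and wild type read 1638.8, 1283.6, 1322 and 1536.6. All 4 mutant values exceeded 3 of the wild-type values, and the log2 difference was 0.16 (interval -0.13 to 0.44). On Suclg2 B it was 0.19 (interval -0.12 to 0.50), and neither probe set was called (limma, adjusted p = 0.987 and 0.977). The array maker's name for Suclg2 A marks probes that may bind other transcripts.

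Slc25a31, the germ cell ADP/ATP carrier that exchanges nucleotides across the inner membrane, read 2036.4, 2433.8, 2099.9 and 2215.1 in mutants, against 2176.6, 2126.2, 2070.8 and 2008 in wild type. Means were 2196.3 ± 174.7 in mutants and 2095.4 ± 72.6 in wild type (SD, n = 4 each). The log2 difference was 0.065 with an interval from -0.19 to 0.32 (limma, adjusted p = 0.999).

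Gk2, a testis glycerol kinase that phosphorylates glycerol and sits at the outer mitochondrial membrane in sperm, read 8443.5, 11366.3, 12155.3 and 11616 in mutants, against 11417.9, 12371.5, 12011.4 and 10466.8 in wild type. Mutant replicate 1 was the lowest of the 8, and the other 3 mutants lay within the wild-type range. The log2 difference was -0.097 with an interval from -0.39 to 0.20 (limma, adjusted p = 0.999), and without mutant replicate 1 it was 0.020.

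**Figure D3:**
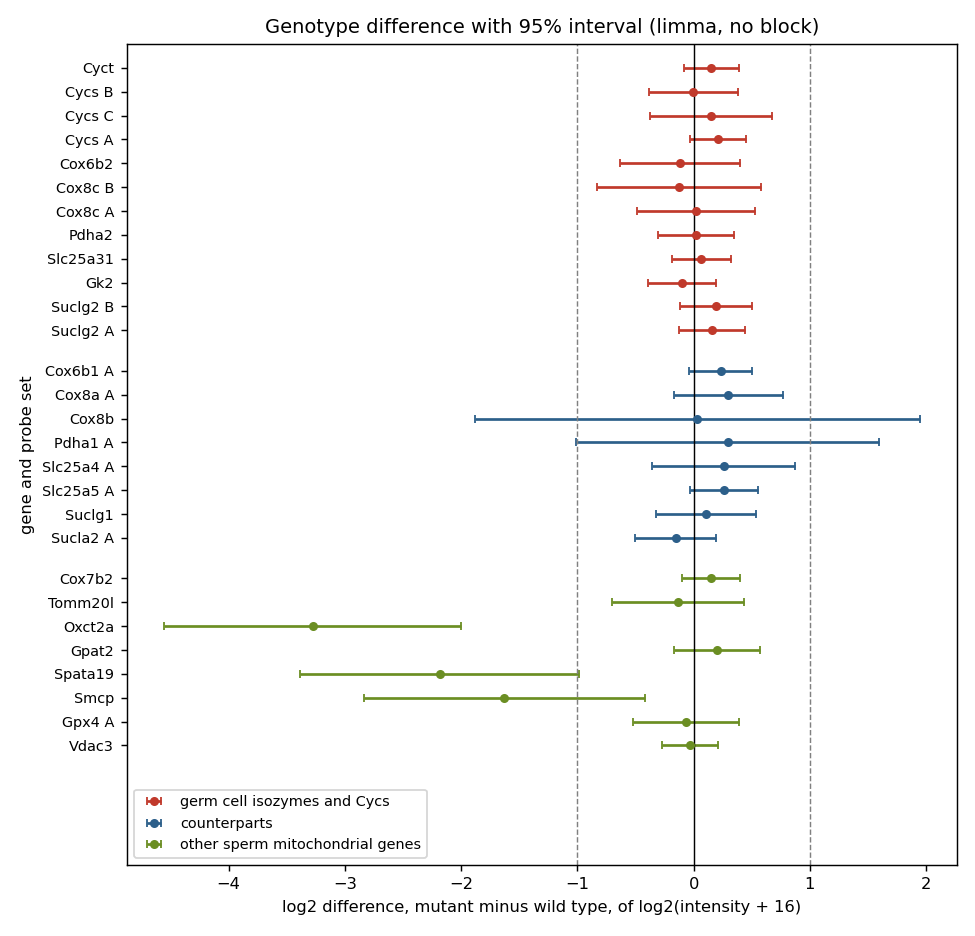
Log2 difference, mutant minus wild type, with its 95% interval for the 12 member probe sets tested (red), the brightest probe set of 8 counterpart genes (blue) and of 8 other sperm mitochondrial genes (green). Dashed lines mark 1 log2 unit either way; all 12 member intervals lie between them, while the interval of Oxct2a lies wholly below -1.

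Marker genes of late spermatids moved with genotype on the same arrays. The summed intensity of 8 markers of elongating spermatids ran from 3346 to 24024 in mutants and from 70877 to 126533 in wild type, without overlap, and with the replicate number as a block all 8 fell (limma over genes, adjusted p under 0.05). With the batch block 6 of the 8 were called, Spem1 and Odf1 not among them, and without a block 1, Prm2. Over all genes 3.19%, 2.22% and 0.319% were called lower with the replicate block, the batch block and no block. None of the 8 markers was at 0. The 8 spermatocyte markers summed to 21456 to 35567 in mutants and 22502 to 34655 in wild type. Their median log2 difference was -0.0685 (0.050 without mutant replicate 1), and no gene was called with either block. The median over the 8 member genes was 0.044 and over the 8 elongating spermatid markers -3.24, against 0.065 over all 13795 genes with 1 probe set each. Without mutant replicate 1 the elongating spermatid median was -2.49. The 8 round spermatid markers summed to 12510 to 22398 in mutants and 20333 to 30607 in wild type, with 7 negative log2 differences, a median of -1.21 (-0.65 without mutant replicate 1) and none called in the 3 fits. In whole tissue, fewer cells of a type and less RNA per cell cannot be told apart. The part of these markers' cells in the members' values was not tested.

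Other genes whose products serve sperm mitochondria were divided. Of 9 listed, 8 were measured. Oxct2a, the spermatid form of a mitochondrial ketone body enzyme, read 48.9, 381.3, 118.9 and 255.6 in mutants, against 2007.9, 3014.5, 1494.8 and 887.8 in wild type. All 4 mutants lay below all 4 wild-type mice. Its log2 difference was -3.28 with an interval from -4.55 to -2.003, and it fell in the fits with a block for replicate number or for batch (limma over genes, adjusted p = 0.0161 and 0.0252), though not without a block (0.0607).

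Spata19, a mitochondrial protein of spermatids, had 427.7, 2396, 2202.2 and 3011.3 in mutants and 7353.9, 9071.3, 7775.2 and 5862.8 in wild type, a log2 difference of -2.18. It was called with the replicate block (limma over genes, adjusted p = 0.0366), but not with the batch block (0.0578) or without a block (0.129). Without mutant replicate 1, the lowest mouse, the difference was -1.56 and the fit without a block called it (limma over genes, adjusted p = 0.023). Smcp, a cysteine-rich protein of the sperm mitochondrial capsule, also did not overlap between genotypes (log2 difference -1.63) but was called in none of the 3 fits. Without mutant replicate 1 its difference was -1.0003. The remaining 5, Cox7b2, Tomm20l, Gpat2, Gpx4 and Vdac3, had log2 differences from -0.14 to 0.20 and were not called. Cox7b2, a further germ cell subunit of complex IV, averaged 8409.1 ± 1024.8 in mutants and 7559.8 ± 358.7 in wild type (SD, n = 4 each).

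Glycerol metabolism, in which Gk2 acts, held 1 gene that fell in the fits with a block, though not without one (limma over genes, adjusted p = 0.0935). Gpd2, the mitochondrial glycerol-3-phosphate dehydrogenase that uses the product of glycerol kinase, read 928.7, 2555.4, 2226.4 and 2749.3 in mutants, against 5795.3, 8120.3, 6447.3 and 4131.2 in wild type on the brightest probe set of 3. The genotypes did not overlap. The log2 difference was -1.60 with an interval from -2.38 to -0.82, and it was called with either block (limma over genes, adjusted p = 0.0268 and 0.0445). The other Gpd2 probe sets kept had log2 differences of 0.070 and -0.13 and were not called in any of the 3 fits. Of 9 listed glycerol genes 8 were measured, and the median over them was 0.24, with 2 negative differences. The lowest was that of Aqp7, -1.66, which was called in none of the 3 fits (limma over genes, adjusted p = 0.273 without a block).

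The somatic or general counterparts of the members had mostly positive differences, none of them called. Of 8 counterpart genes measured, 7 had positive log2 differences, with a median of 0.25, against 0.065 over all genes. The 8 include Suclg1, the partner subunit of Suclg2 rather than an alternative form of it. Cox6b1, the general form of the subunit that Cox6b2 replaces, read 5514.4, 4923.9, 4464.6 and 4998.2 in mutants and 4486.8, 3596.6, 4325.4 and 4537.3 in wild type on its brighter probe set, a log2 difference of 0.23 (limma, adjusted p = 0.8). Only 1 mutant value lay within the wild-type range. Slc25a5, an ADP/ATP carrier of most tissues, had one of 0.26 on its brightest probe set, and from -0.14 to 0.43 over its 8 probe sets. The array maker's name for the brightest Slc25a5 probe set marks probes that may bind other transcripts. Sucla2, the ATP-forming counterpart of Suclg2, had the only negative value, -0.15. Sertoli cell markers, 8 listed and 7 tested, had a median of 0.20, and their summed intensity ran from 26835 to 33289 in mutants and from 24321 to 27420 in wild type. Their median was 0.083 after quantile normalization and 0.10 without mutant replicate 1. Markers of macrophages, spermatogonia and Leydig cells also had positive medians, 0.22, 0.15 and 0.14. Without mutant replicate 1 these were 0.076, 0.0305 and 0.109, against 0.0448 over all genes in that fit. Peritubular and endothelial markers had medians of 0.086 and 0.037 with all mice. Markers of spermatocytes and of round and elongating spermatids had negative medians, the spermatocyte one turning to 0.050 without mutant replicate 1. None of these markers was at 0, and their part in the counterpart values was not tested.

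The within-array difference of a member from a listed counterpart overlapped between genotypes in all 8 pairs. Gk2 had no pair, since Gk was matched to no probe set. As mutant minus wild type it was -0.35 (standard error 0.28) for Cox6b2 minus Cox6b1, -0.28 (0.44) for Cox8c minus Cox8a and -0.27 (0.82) for Pdha2 minus Pdha1. It was -0.19 for Slc25a31 minus Slc25a4 (0.36) or Slc25a5 (0.18). It was 0.31 (0.23) for Suclg2 minus Sucla2 and 0.052 (0.20) for Suclg2 minus Suclg1. Between batches, as higher-numbered minus lower-numbered replicates, the Cox6b2, Cox8c and Pdha2 pairs differed by more, -0.65, -1.02 and -1.94. In these pairs the batches did not overlap, nor did they for Suclg2 minus Suclg1, at 0.42. The pairs are described without a test, and no share of overlapping pairs among other genes is given.

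The respiratory chain and the cycle that feeds it showed no called gene. Over the 72 measured nuclear genes of complexes I to V, 58 had positive and 14 negative log2 differences. Their median was 0.070, near the 0.065 over all genes, where positive signs were thus also the more common. None of the 72 passed in the fits without a block, with the replicate block or with the batch block (limma over genes, smallest adjusted p = 0.492, 0.11 and 0.0889). At an unadjusted p under 0.05 the counts were 1, 14 and 13 of 72, where 9.63%, 17.2% and 17.7% of all genes passed. At the adjusted threshold, over all genes 0.333%, 3.5% and 2.69% were called in these fits, of which 0.319%, 3.19% and 2.22% were lower in mutants. The split of signs was 44 positive and 28 negative after median centring, and 40 positive and 32 negative without mutant replicate 1, with a median of 0.014. Of 11 genes of the pyruvate dehydrogenase complex and its kinases and phosphatases 0 were called, with a median of -0.0026, and of 14 citric acid cycle genes 0, with a median of 0.11. The 13 carriers and channels, the 10 measured genes of the apoptosome pathway and the 8 regulators of mitochondrial biogenesis also had 0 called in all 3 fits, with medians of 0.19, 0.089 and 0.11.

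**Figure D4:**
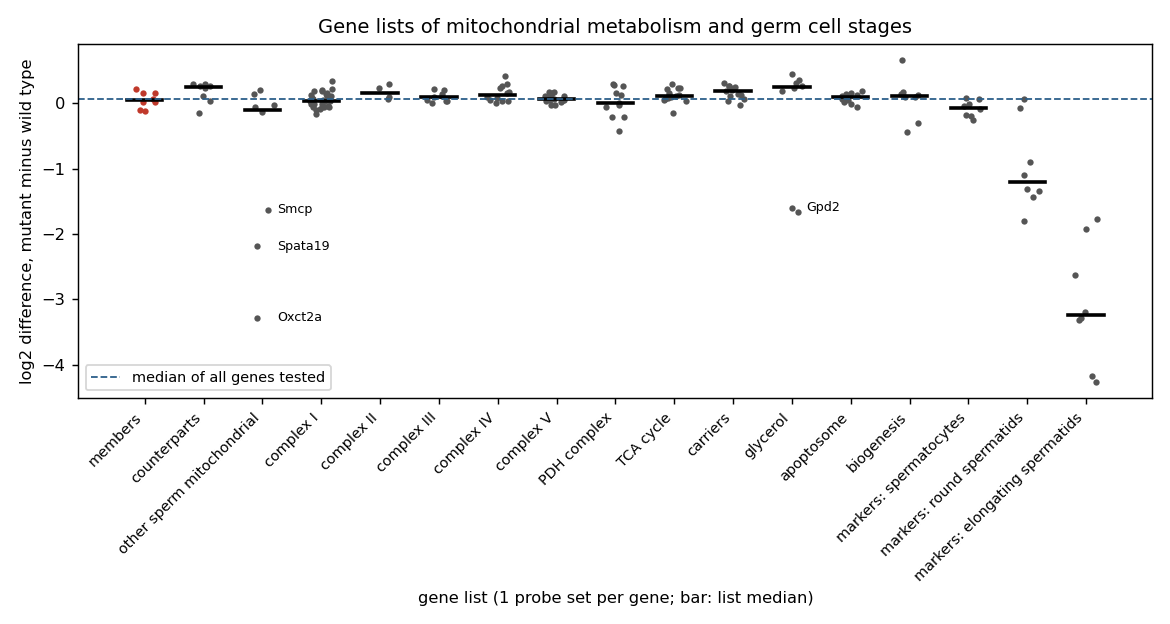
Log2 difference, mutant minus wild type, of each gene (points, 1 probe set per gene) by list, with the list median as a bar and the median of all genes as a dashed line. The 8 member genes lie between -0.12 and 0.21, and the elongating spermatid markers have a median of -3.24.

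Cox6b2, Cox8c and Pdha2 were lower and 1 of 3 Cycs probe sets was higher in replicates 3 and 4 than in replicates 1 and 2, over both genotypes. Replicates 3 and 4 of both genotypes stand apart from replicates 1 and 2 on these arrays, and the labels name no batch. With genotype kept in the model, 5 of 12 member probe sets were called between them (limma), 4 lower and 1 higher in replicates 3 and 4, where 40.9% of all probe sets were called, 17.6% lower and 23.3% higher. The share of the members is thus near the background.

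Cox6b2 had a mean of 14789 ± 1426 in replicates 3 and 4, against 23179 ± 1051 in replicates 1 and 2 (SD, n = 4 each). The log2 difference was -0.65, its standard error 0.062 (limma, adjusted p = 0.000147). Cox8c A had a mean of 9617.5 ± 305.5 in replicates 3 and 4, against 14954 ± 543.6 in replicates 1 and 2 (SD, n = 4 each), a log2 difference of -0.64 (limma, adjusted p = 0.000102). Within mutants alone these were -0.70 and -0.70, and within wild type alone -0.60 and -0.57. Both genes were lower in all 4 mice of replicates 3 and 4 than in any mouse of replicates 1 and 2, and 35.9% of all probe sets separated the batches, in either direction. The highest value on an array and the array median separated the batches too, the first lower and the second higher in replicates 3 and 4. The part of this in the falls of these bright probe sets was not tested.

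Pdha2 was lower by less, with a log2 difference of -0.28 (limma, adjusted p = 0.0356), and lost its call after quantile normalization (-0.14, adjusted p = 0.201). Cycs C was higher in replicates 3 and 4, at 2545.5 ± 295.02 against 1719.1 ± 248.9 in replicates 1 and 2 (SD, n = 4 each), a log2 difference of 0.57 (limma, adjusted p = 0.00491). Cyct and Slc25a31 had small batch differences of -0.054 and -0.061, and neither was called. Quantile normalization gave all probe sets a median of -0.069, against 0.056 before it, and 5130 calls higher and 6166 lower in replicates 3 and 4, against 6292 and 4748. After it Cyct had a batch difference of 0.0785, and Gk2 and both other Cycs probe sets were called higher.

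Markers of several cell types, inside and outside the seminiferous tubules, moved with the batches in either direction. Over all probe sets, 23.3% were called higher and 17.6% lower in replicates 3 and 4. The 6 measured epididymis markers were all called higher in replicates 3 and 4 (limma), with sums from 39239 to 47760, against 162 to 432 in replicates 1 and 2. The 3 measured fat cell markers were all called higher too, with sums from 24899 to 32221 against 1173 to 8312. Macrophage markers were lower, with 4 of 6 called, and so were Leydig cell markers, with 3 of 4 called. Of 5 peritubular markers 1 was called higher, and of 5 endothelial markers 1 was called higher and 1 lower. Spermatocyte markers were higher in replicates 3 and 4, with 6 of 8 called. None of these markers was at 0 on every array. Among the counterparts, Cox8b, the subunit form of heart, muscle and brown fat, had a mean of 222.4 ± 94.8 in replicates 3 and 4, against 37.5 ± 26.2 in replicates 1 and 2 (SD, n = 4 each; log2 difference 2.21, limma, adjusted p = 0.00272). Pdha1 rose 3.17-fold there on its brighter probe set (limma, adjusted p = 0.000162) and had a log2 difference of 0.15 on the dimmer one, which was not called. The part of these tissues in the batch differences was not tested.

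**Figure D5:**
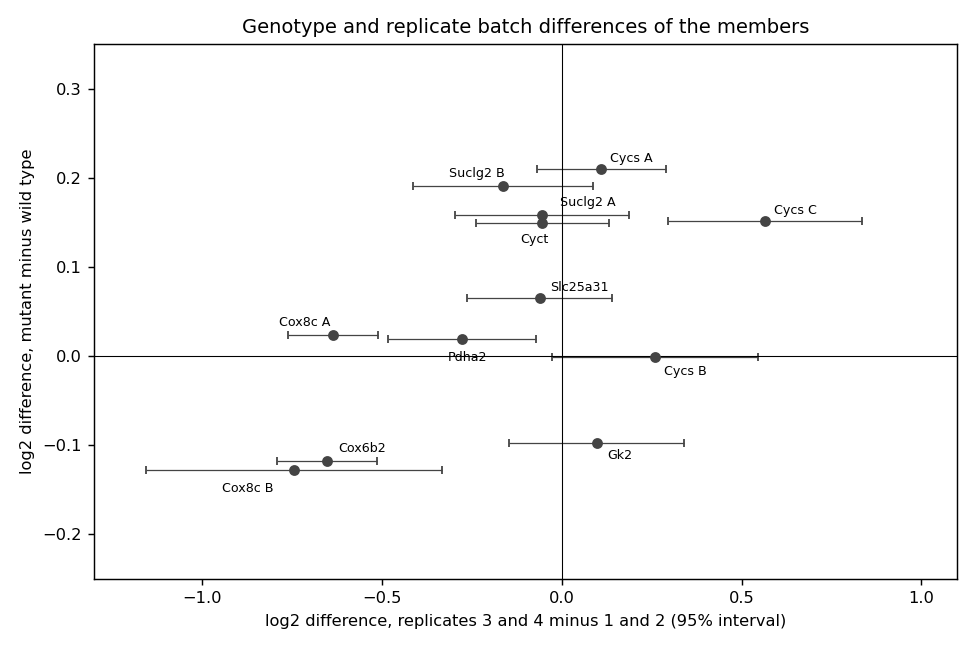
Log2 difference between genotypes (mutant minus wild type, vertical axis) against that between batches (replicates 3 and 4 minus 1 and 2, horizontal axis, with 95% interval) for the 12 member probe sets tested. Genotype differences lie between -0.13 and 0.21, and Cox6b2 and both Cox8c probe sets lie between -0.74 and -0.64 on the batch axis.

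Among all kept probe sets with a single gene symbol, those most like Cyct over the 8 arrays were Pla2g12b, Map2k4 and Tnpo3 (Pearson r = 0.98, 0.96 and 0.94 on log2 values). Those most like Cycs A were Rerg, Clu and Ube4b (r = 0.99, 0.98 and 0.97). These are the highest correlations of 23425 probe sets searched for Cyct and 23423 for Cycs, over 8 arrays that share genotype and batch, and they are given as a description.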

How the data were processed

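The authors deposited linear intensity values, for which the submitters' processing notes name GCOS with no version or settings. The trimmed mean (2% off either end) was 500 on every array. Medians ranged from 90.7 to 103.0 in replicates 1 and 2 and from 111.8 to 124.1 in replicates 3 and 4. The highest value on an array ranged from 29763.7 to 34836.1 in replicates 1 and 2 and from 22832.8 to 29329.6 in replicates 3 and 4. No detection calls were used. The table held 45101 probe sets, of which 64 controls were left out. Those with a mean over the 8 arrays above the 40th percentile, an intensity of 67.1, were kept (27022). Of 45037 probe sets the annotation gave 34945 a single symbol, 932 several and 9160 none. Old symbols were replaced by way of their Entrez identifiers. Values were taken as log2(intensity + 16), so changes of dim genes are understated.

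Genotypes were compared with limma 3.58.1 in R 4.3.3 (lmFit, eBayes with trend, two-sided, Benjamini-Hochberg over all probe sets). Lists used 1 probe set per gene, the one with the highest mean (13795 genes). The code was tested on simulated data. Each array is a separate mouse.

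The replicate numbers are shared by both genotypes. Mice that share a number deviated together from their genotype's mean (r from 0.519 to 0.618 in the 4 pairs), which counts as pairing here, although for 3 of the 4 numbers a mouse of another number correlated more. The batch block separates replicates 1 and 2 from 3 and 4. The members, lists, tests and both blocks were chosen with earlier results of these data known. Probe sets of a gene are lettered by brightness. Named genes were all member probe sets, the counterparts, up to 3 called genes per list and the 3 genes most like Cyct and Cycs. The rest of the list of other sperm mitochondrial genes, Cox7b2 with its values, and Aqp7 were named after their values were seen. Figures were drawn with matplotlib 3.10.9. Alternatives were both blocks, quantile normalization, median centring, other pseudocounts and filters, array weights, eBayes without trend or robust, each batch alone and each mouse left out.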

Additional observations from a re-analysis of the deposited data

Results flagged for a closer look

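In 58 groups of 4 mice, 4 held a mouse set apart from the other 3 by more than Dixon's 95% critical value, where chance flags about 1 group in 20. Cycs A was low in wild-type replicate 2 (3725.7), the mouse that also gave the highest within-array difference of Cyct from Cycs. Suclg2 B was high in wild-type replicate 1 (607.6). Among comparison genes, the brightest Slc25a5 probe set was high in wild-type replicate 4 (5550.7) and Tomm20l was high in mutant replicate 2 (3881.2).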

How the results depend on the processing

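No member probe set was called between genotypes under any of 30 alternatives (355 values, smallest adjusted p = 0.213, largest size 0.41), with the replicate block, the batch block, within either batch or with any 1 mouse left out. Of these values 318 kept their sign. Signs turned within replicates 3 and 4 for Gk2 (0.084), Cox8c B (0.14), Pdha2 (-0.063) and Cox8c A (-0.0395), and within replicates 1 and 2 for Cycs B (0.0195). Array weights gave Cycs B 0.099, Pdha2 -0.13 and Cox8c A -0.24. Quantile normalization gave Cycs B 0.0066 and Cox8c A -0.034, and median centring gave Pdha2 -0.023 and Cox8c A -0.0185. Leaving out 1 mouse, without a block and with the batch block, gave ranges of -0.15 to 0.020 and -0.17 to 0.024 for Gk2, -0.079 to 0.14 and -0.13 to 0.12 for Cycs B, -0.25 to 0.0062 and -0.15 to -0.063 for Cox6b2, -0.35 to 0.11 and -0.25 to 0.0042 for Cox8c B, -0.073 to 0.10 and -0.059 to 0.072 for Pdha2, and -0.099 to 0.16 and 0.0039 to 0.055 for Cox8c A. The difference of Cyct from Cycs was -0.061 with the replicate block too (exact sign-flip permutation test, p = 0.875). With 1 mouse of each genotype per number this difference cannot change. The pairs are too few for that test to reach 0.05. The difference was 0.15 with Cycs B, 0.085 within replicates 3 and 4, and from -0.12 to 0.063 with 1 mouse left out. Over the whole table the calls numbered 31 without a block, 646 with the replicate block, 485 with the batch block, 668 with array weights, 58 with a pseudocount of 64, 0 within replicates 1 and 2, and 0 to 119 (43 to 701 with the batch block) with 1 mouse left out. The block changed no call of a member, and raised the pathway genes called lower (0 without a block) to 3, the batch block to 2, and leaving out mutant replicate 1 to 3. Between batches the members called numbered 3 within wild type alone and 4 to 6 with 1 mouse left out, Gk2 was -0.084 within wild type alone and -0.025 to 0.17 with 1 mouse left out, Suclg2 A -0.13 to 0.0084, and Cyct 0.0385 within mutants alone and 0.0785 after quantile normalization. The causes were not tested.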
